A study of Homo sapiens with 20 samples.

Results

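RUNX1 occupancy was examined at the ends of the nuclear genes that encode the mitochondrial ribosome, the complexes of the respiratory chain with ATP synthase, and their assembly factors. Members were protein-coding nuclear RefSeq genes (assembly GRCh38.p14) whose symbol begins with MRPL, MRPS, NDUF, UQCR, COX or ATP5, and every RUNX1 peak within 1 kb of either end of such a gene was taken. The rule used names and positions and no measured value. It returned 126 peaks of 26642 in the count table, at 120 of 181 member genes, and left 6368 other peaks that lay as near to the end of some other protein-coding gene for comparison. The families are defined by symbol alone, so assembly factors (NDUFAF, COX15, COX16 and others) and tissue-restricted isoforms are included, and complex II is not.

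The 12 libraries were chromatin immunoprecipitations of RUNX1 from THP-1, an established human monocytic leukemia line grown in RPMI with serum. All libraries carried a doxycycline-inducible shRNA cassette and all cells received doxycycline. The cassette was directed at PU.1 in 6 libraries (knockdown) and held a scramble sequence in 6 (control), in 2 experimental rounds that the labels call batches: 3 control and 2 knockdown libraries in batch 1, and 3 control and 4 knockdown libraries in batch 2. Replicates were separate immunoprecipitations and libraries of THP-1 cells, so p-values measure the spread between these preparations. Control and knockdown cells carry different cassettes and so are separate derivatives of the line. A difference between the derivatives cannot be told apart from the knockdown in these libraries. The series also holds 8 IgG samples, which were not analysed here. PU.1 itself and the markers of the cell type are transcripts or proteins and could not be checked in a table of RUNX1 peaks. Reads in peaks ranged from 630247 to 1199004 in control and from 938745 to 1719840 in knockdown libraries. The median member peak received 30 to 70 reads per library, so single peaks carried considerable counting error.

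Mitochondria keep their own ribosomes, which translate the few proteins that the mitochondrial genome still encodes, all of them subunits of the respiratory chain or ATP synthase. Every protein of that ribosome and most subunits of the chain are encoded in the nucleus, transcribed by RNA polymerase II from short, TATA-less promoters that are active in nearly all cells. Transcription factors known at such promoters include NRF1, YY1 and the ETS factor GABP, whose core letters resemble those of other ETS factors. PU.1 (gene SPI1) is also an ETS factor but prefers a purine-rich core, and RUNX1 is a Runt-domain factor that binds beside PU.1 at many myeloid enhancers.

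To show the letters under these peaks, promoters of members named below were searched in the RefSeq promoter table. It gives strand and runs from 250 bases before to 50 bases after each start. MRPL10, MRPL13, MRPL15, MRPL21, NDUFB10 and COX6C were left out of this search of single promoters. The motifs were TGTGGT (RUNX), CCGGAAG (ETS), GAGGAAG (purine-rich ETS), GCGCATG (NRF1), AAGATGG (YY1), CCAAT (NFY) and GGGCGG (SP/KLF), each on both strands. The ETS and purine-rich ETS letters cannot match at the same position, and NRF1 letters on both strands can overlap in GCGCATGCGC. Capitals mark matches to the first 5 motifs, sequences run 5′ to 3′ on the strand of the gene, and a match is a description of letters, not a bound site. Printed stretches lie before the start, so RUNX letters after the starts of NDUFS3 (44 bases) and COX15 (30 bases) are not shown. No match to the first 5 motifs was found at MRPL39, COX16, NDUFV2, NDUFB1 or MRPL18. The first set shows ETS letters at peaks that fell, did not pass the test or rose after knockdown.
NDUFS3 (lost), chr11:47578970-47578999, plus strand: cgCTTCCGGctccacgtccgcCCGGAAGaa
MRPL3 (lost), chr3:131502987-131503013, minus strand: gtaaaacgcaCCGGAAGtgggtccggc
MRPS21 (lost), chr1:150293840-150293860, plus strand: gtaatttccgCTTCCGGtagt
MRPS23 (no call), chr17:57850045-57850068, minus strand: ggagcagccgCTTCCGGttccggt
COX15 (no call), chr10:99732128-99732145, minus strand: gctgcccgacCCGGAAGt
MRPS26 (gained), chr20:3046005-3046031, plus strand: ccccgcgccgCTTCCGGggcacggtgg

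The second set shows NRF1, YY1 and RUNX letters. ATP5PF lies outside the rule for named peaks, and its promoter was added to this search by choice. That promoter, which is shared with GABPA, the gene for the DNA-binding subunit of GABP, held 4 matches within the 130 bases before its start.
ATP5PF (lost), chr21:25735158-25735184, minus strand: cactcaaagaGCGCATGcgtacagagc
ATP5PF (lost), chr21:25735095-25735121, minus strand: aggcgaagaaAAGATGGcggaggctgt
ATP5PF (lost), chr21:25735057-25735085, minus strand: cCCGGAAGcacttaccctccaCTTCCTCc
NDUFB4 (lost), chr3:120596167-120596196, plus strand: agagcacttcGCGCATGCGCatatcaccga
MRPL17 (start peak no call, second peak gained), chr11:6683402-6683431, minus strand: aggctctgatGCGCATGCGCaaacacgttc
UQCRH (no call), chr1:46303508-46303533, plus strand: tatacttgggTGTGGTatgactaagg

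RUNX1 peaks were frequent at member genes. Within 1 kb of an end, 120 of 181 member genes (66.3%) had a peak, against 7287 of 20033 protein-coding genes (36.4%). Among genes with a known strand, 102 of 155 member starts (65.8%) and 5490 of 15841 starts overall (34.7%) had one. Other housekeeping genes were also often bound, with 58 of 76 cytosolic ribosomal protein genes (76.3%) and 50 of 72 other genes of mitochondrial gene expression and respiratory chain assembly (69.4%). ZNF zinc finger genes had a peak at 237 of 518 (45.8%). By complex, 36 of 49 MRPL, 20 of 28 MRPS, 27 of 38 NDUF subunit, 6 of 9 UQCR, 8 of 20 COX subunit, 7 of 9 COX assembly and 13 of 20 ATP5 genes had a peak, whereas 3 of 8 NDUFAF assembly factor genes did.

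Most member peaks lay at the start of the gene. Of the 126 peaks, 102 lay within 1 kb of a member start, 10 at the other end and 14 at genes without a known strand. The gene end itself was overlapped by 113, and 97 of the 102 peaks near a member start covered that start. Nearness to an end was the rule and peaks are wide, so this overlap is partly set by the choice of peaks. It was not counted for other gene-end peaks. The signed offset of the peak centre from the start (positive downstream) had a median of 55.5 bp, with quartiles of -106.5 and 205.5 bp. Starts here are the outer ends of the gene models, which for MRPL39 and ATP5PF lie upstream of the start in the promoter table. The median member peak was 1378 bp wide and had a mean normalised count (reads divided by the library's size factor, not scaled to width) of 50.1, against 1291 bp and 43.3 for the other gene-end peaks. Sharing was common, since 60 member peaks (47.6%) were as near to the end of a gene outside the list, and 3 lay near more than 1 member. Among other gene-end peaks, 1294 (20.3%) lay near 2 or more genes. For a shared peak the reads cannot be assigned to either gene.

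Promoter letters of bound members were set beside those of all promoters of the same length. ETS letters occurred in 43 of 102 member promoters with a peak (42.2%), in 23.7% of all 5490 promoters with a peak, in 14.2% of all 15841 promoters, and in 8 of 53 member promoters without a peak (15.1%). YY1 letters occurred in 28.4% of bound member promoters, against 8.69% of bound promoters and 6.4% of all promoters, and NRF1 letters in 17.6%, 8.69% and 5.87%. In member promoters without a peak they occurred in 18.9% and 9.43%. Promoters of the related mitochondrial genes described last, with or without a peak, held ETS letters in 41.0%, YY1 in 16.4% and NRF1 in 19.7%. On the same basis those of cytosolic ribosomal protein genes held them in 32.8%, 13.1% and 9.84%. All 155 member promoters held them in 32.9%, 25.2% and 14.8%. At least 1 of the ETS, YY1 and NRF1 letter sets was present in 69 of 102 bound member promoters (67.6%), against 35.6% of bound promoters and 23.5% of all promoters. RUNX letters were found in 14 bound member promoters (13.7%), against 10.8% of bound and 10.8% of all promoters and 13.2% of member promoters without a peak. The purine-rich ETS letters were found in 10.8% of bound member promoters, against 14.4% and 14.2%, and SP/KLF letters in 62.7%, 70.0% and 58.5%. NFY letters were found in 32.4%, 39.8% and 36.4%. Among member promoters, ETS letters occurred in 9 of 24 with a lost peak (37.5%) and in 33 of 75 with a peak that did not pass the test (44.0%), and RUNX letters in 8.33% and 16%. The other motifs were found more often at lost than at uncalled peaks, with purine-rich ETS letters in 20.8% and 8.0%, YY1 in 33.3% and 25.3%, NFY in 45.8% and 29.3% and SP/KLF in 70.8% and 61.3%, except NRF1 with 12.5% and 20%. None of these differences was tested. No match in this window says nothing of letters elsewhere in the peak.

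**Figure D1:**
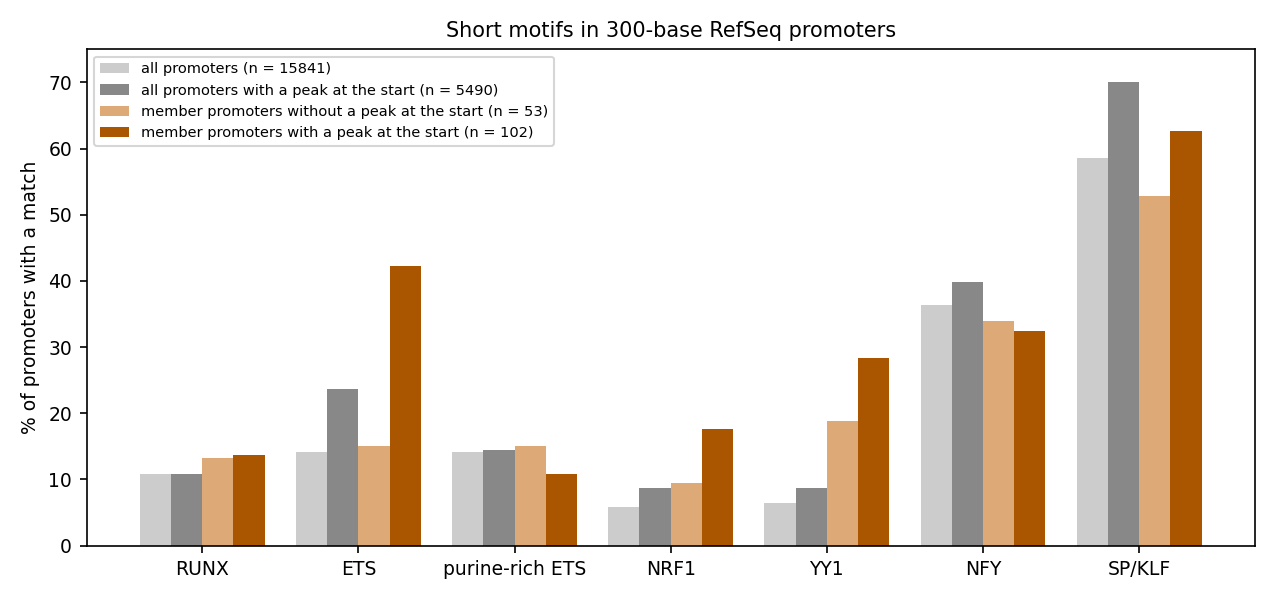
Share of 300-base RefSeq promoters, in percent, that hold each short motif on either strand. Bars compare all promoters, all promoters with a RUNX1 peak at the start, and member promoters without and with such a peak; the last group stands highest for ETS, NRF1, YY1 and, narrowly, RUNX (13.7%, against 13.2% of members without a peak), and not for purine-rich ETS, NFY or SP/KLF.

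To ask whether lowering PU.1 changed RUNX1 at these genes, knockdown was compared with control across all peaks with batch as a covariate. At member peaks RUNX1 was lost more often than gained. Of 126 member peaks, 33 (26.2%) passed the test (DESeq2, adjusted p under 0.05 and fold change over 1.1), of which 30 were lost (23.8%) and 3 gained (2.38%). Over all 26642 peaks the test called 42.0%, with 20.7% lost and 21.3% gained, and over the other gene-end peaks it called 25.2%, with 18.9% lost and 6.27% gained. The share of member peaks called was thus near that of other gene ends. The median log2 fold change was -0.22 over the members, -0.17 over other gene-end peaks, -0.02 over all peaks and 0.07 over peaks beyond 1 kb of a gene end. Of the members, 107 (84.9%) lay below 0, as did 72.1% of other gene-end peaks. Changes were small: single members ranged from -1.09 to 0.74, and 1 call among the 126, at NDUFS3, exceeded 2-fold. Calls over 2-fold made up 3.64% of other gene-end peaks and 17.1% of all peaks.

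**Figure D2:**
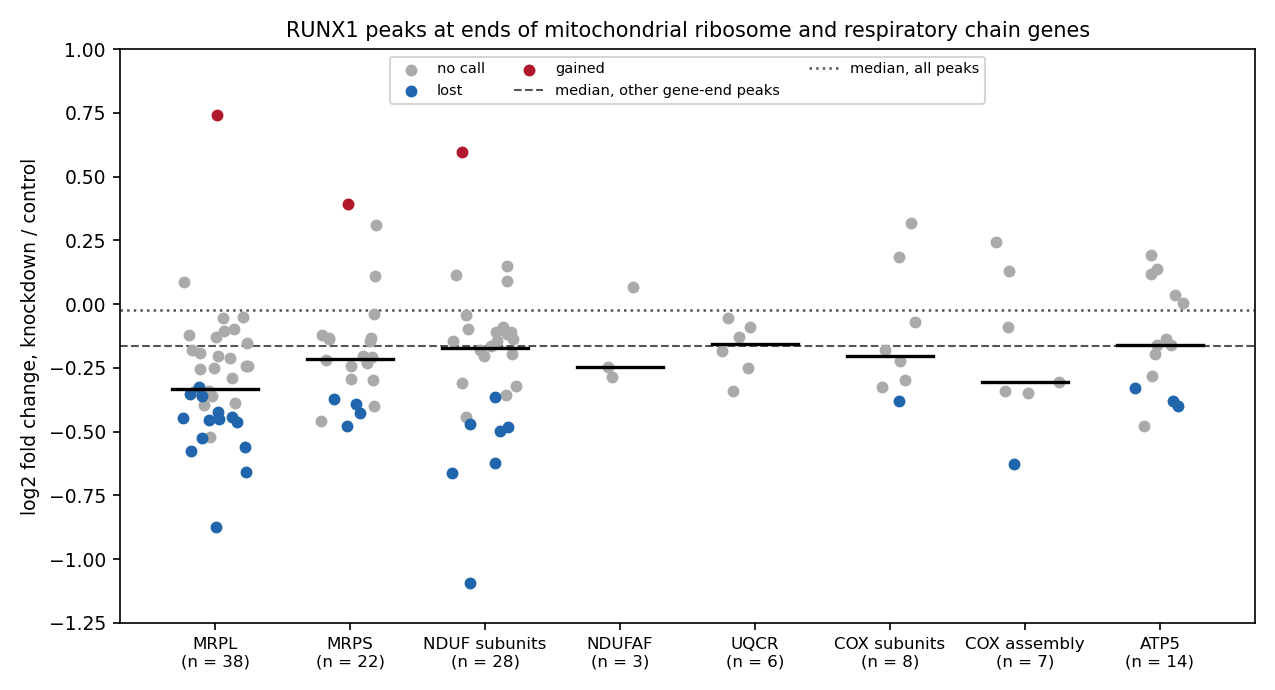
Log2 fold change (knockdown over control, 12 libraries, batch as covariate) of each of the 126 member peaks, by family. Colour marks lost, gained and uncalled peaks, black bars are family medians, and the dashed and dotted lines are the medians of other gene-end peaks (-0.17) and of all peaks (-0.02); most members lie below both lines and 3 gained peaks stand above.

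The balance of lost and gained calls depended on what the libraries were scaled to. With size factors taken from the other gene-end peaks, 7 member peaks were lost and 6 gained (10.3% called in all), the member median became -0.07, and 10 of the 33 calls remained. That scaling moved the median of all peaks from -0.02 to 0.12. Among other gene-end peaks that scaling called 9.14% lost and 9.77% gained (15% and 27.8% of all peaks), and members 5.56% and 4.76%. With size factors from peaks beyond gene ends, 40 members were lost and 3 gained (34.1%, against 30.6% of other gene-end and 43.0% of all peaks). TMM and total in-peak counts gave 28 and 25 lost, with 3 gained under each. Other gene-end peaks shifted in the same way, from 75.1% of calls lost under the main scaling to 48.3%. The member median minus theirs was -0.06 on the log2 scale in the main fit and -0.08 to -0.04 when 1 library was left out, a difference with no test that a change of scaling cannot move much. The range over left-out libraries is not an error of this difference. The 7 losses that held under gene-end scaling were at NDUFS3, MRPL21, MRPL39, NDUFV2, NDUFB10, MRPS21 and NDUFA7. The gains included MRPS26 and the second MRPL17 peak, which were also called in the main fit, and COX17 (0.39, adjusted p 0.0363), the second MRPS18A peak (0.46, adjusted p 0.0092) and the second ATP5PD peak (0.34, adjusted p 0.0301), named after their values were seen.

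**Figure D3:**
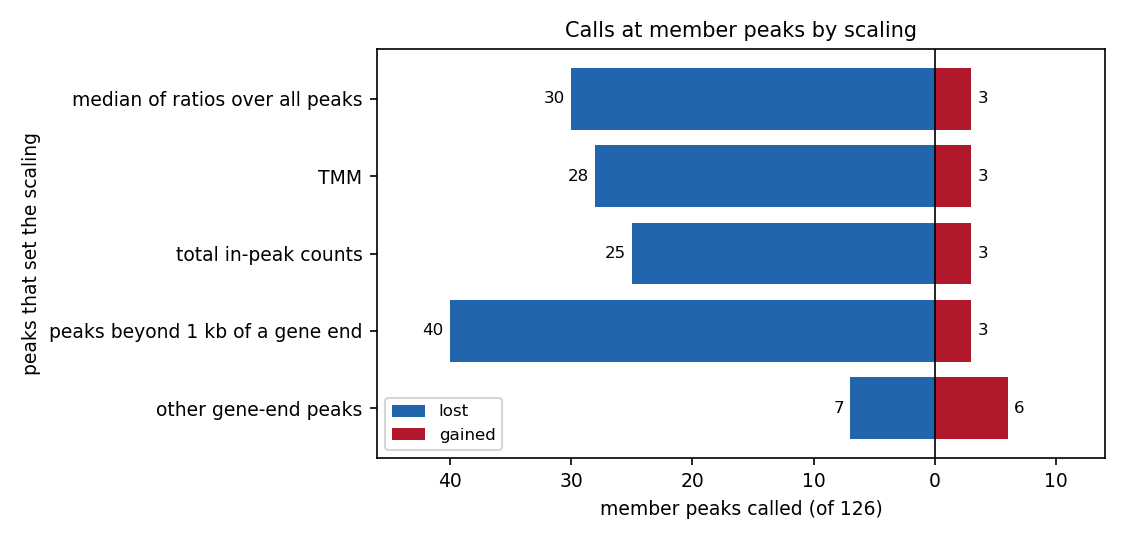
Number of member peaks (of 126) called lost (bars to the left) and gained (bars to the right) by DESeq2 under 5 scalings of the libraries. Lost calls run from 40 with scaling to distal peaks to 7 with scaling to other gene-end peaks, where 6 were gained.

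The same dependence was seen in each library. Member peaks held 0.640% of in-peak reads in the lowest, 0.667% in the median and 0.748% in the highest control library, and 0.573%, 0.592% and 0.613% in knockdown libraries. The groups did not overlap, and the within-batch ratio of knockdown to control was 0.885 in batch 1 and 0.879 in batch 2. The highest value was control replicate 1, a library in which gene ends took 37.4% of in-peak reads, against 31.3% to 32.3% in the other controls. Without it the batch 1 ratio was 0.926. As a share of the reads at all gene-end peaks, members held 1.98% to 2.15% in control and 1.93% to 2.10% in knockdown libraries. On that scale the groups overlapped, with ratios of 0.962 and 0.969. Gene ends as a whole held 31.3% to 37.4% of in-peak reads in control and 27.4% to 31.7% in knockdown libraries. These shares are descriptions and were not tested.

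**Figure D4:**
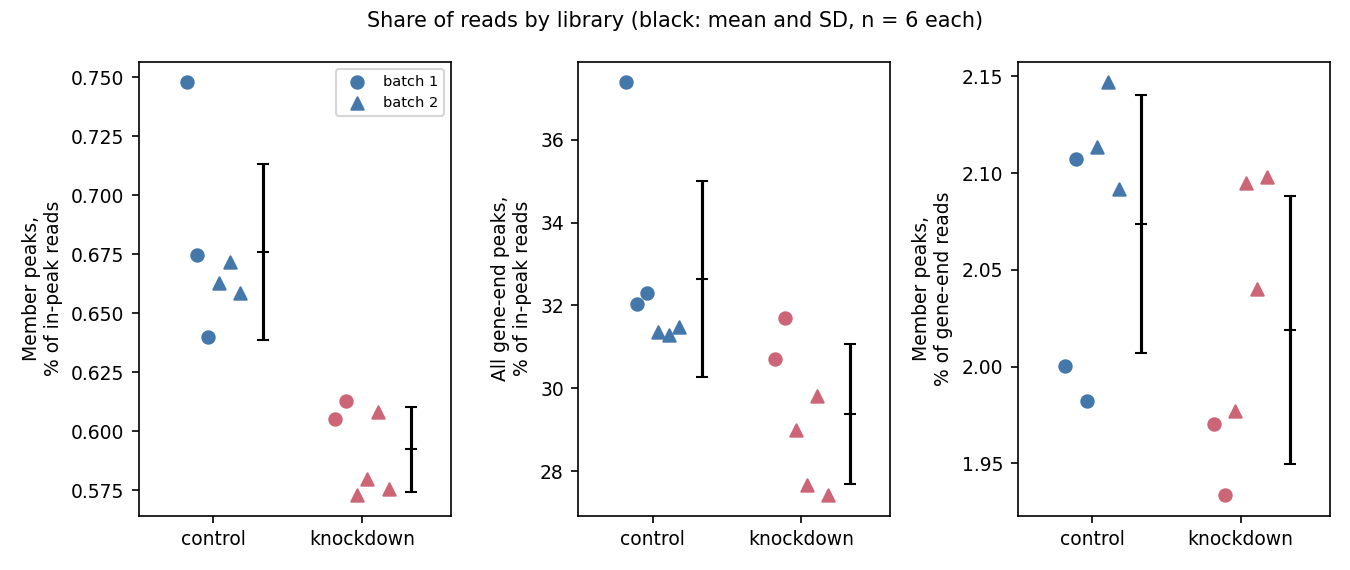
Per library, the percent of in-peak reads in member peaks (left), the percent of in-peak reads in all gene-end peaks (middle) and the percent of gene-end reads in member peaks (right). Symbols mark the batch and black bars the mean and SD of 6 libraries; axes do not start at 0, the groups are separate on the left and overlap on the right.

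Within batches few members passed the test. Below 0 in both batches lay 71.4% of members and 56.0% of other gene-end peaks, and the member median was -0.23 in batch 1 and -0.22 in batch 2. In batch 1 DESeq2 called 0 members, where it called 12% of all peaks and 3.41% of other gene-end peaks. There 8 members had an unadjusted p under 0.05 (6.35%, against 10.1% of other gene-end and 24.7% of all peaks), and edgeR called 11 (8.73%, against 11.7% and 27.3%). In batch 2 it called 9 members (7.14%), all lost, where it called 25.8% of all peaks and 12.5% of other gene-end peaks, and edgeR called 21 (16.7%, against 21.6% of other gene-end and 36.2% of all peaks). In 10 members (7.94%) every knockdown library lay below every control library of its own batch, and in 2 (1.59%) above. These shares were 13.9% and 14.4% over all peaks and 9.34% and 4.13% over other gene-end peaks. The interaction test of batch and genotype called 0 of all 26642 peaks with DESeq2 and with edgeR, members included. An unadjusted p under 0.05 was reached by 5 members with DESeq2 (3.97%, against 1.81% of other gene-end and 2.51% of all peaks) and by 9 with edgeR (7.14%, against 4.63% and 5.34%). Without control replicate 1, 23 members were called (18.3%, against 20.3% of other gene-end and 39.2% of all peaks), with 20 lost and 3 gained, and all 23 were among the 33. Leaving out each library in turn, 9 of the 33 calls were kept in all 12 fits, at NDUFS3, MRPL21, MRPL39, MRPL3, NDUFV2, NDUFB10, MRPS21, NDUFA7 and the second MRPL17 peak. Centred on the median of their 10 Mb windows, 23 of the 33 were kept.

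The large subunit of the mitochondrial ribosome held 15 of the 33 calls and 38 of the 126 member peaks. Of its peaks 39.5% were called, against 25.2% of other gene-end and 42.0% of all peaks. The calls were 14 lost and 1 gained, which became 2 lost and 1 gained when scaled to other gene ends. The median over the MRPL peaks was -0.33 in the main fit. At the MRPL21 peak (chr11:68903408-68904535, shared with IGHMBP2, a helicase gene) the normalised count was 35.7, 40.9 and 61.1 in the lowest, median and highest control library and 11.9, 24.9 and 28.3 in knockdown. The groups did not overlap, and binding fell by 0.88 ± 0.21 (log2, SE) at an adjusted p of 0.000166. The highest control value was again control replicate 1, without which the adjusted p was 0.00138. MRPL21 lies in a 10 Mb window of chromosome 11 whose 202 peaks had a median log2 fold change of -0.35, and centred on that median the fall was 0.53 (adjusted p 0.0308).

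MRPL39, a mitochondrion-specific protein related to threonyl-tRNA synthetases, had a peak of its own (chr21:25607015-25607962). Its counts ran 43.8, 60.0 and 72.8 in control and 23.8, 37.0 and 51.1 in knockdown, and the groups overlapped. The log2 fold change was -0.66 ± 0.18 (adjusted p 0.000998), with -0.32 ± 0.32 in batch 1 and -0.91 ± 0.24 in batch 2. None of the first 5 motifs was found in its promoter. At MRPL3 (chr3:131501671-131503307), a core protein with bacterial homologs, counts ran 36.9, 50.4 and 61.1 in control and 26.1, 34.0 and 45.7 in knockdown. They overlapped, with a log2 fold change of -0.56 ± 0.18 (adjusted p 0.00696).

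MRPL49 and MRPL10, which encodes the base of the flexible stalk where translation factors dock, shared their peaks with FAU and LRRC46. The MRPL49 peak (chr11:65121380-65122588) held 28.8, 37.7 and 39.9 in control and 19.8, 23.4 and 30.9 in knockdown libraries. Only the edges of the groups overlapped, and the log2 fold change was -0.57 ± 0.20 (adjusted p 0.014). MRPL49 lies in the same window as MRPL21, and after centring its call was lost (adjusted p 0.39), as it was without knockdown replicate 2 (0.0508). The MRPL10 peak (chr17:47830678-47831898) held 40.0, 52.3 and 65.0 in control and 29.2, 35.2 and 44.3 in knockdown libraries. These overlapped in part, with a log2 fold change of -0.52 ± 0.17 (adjusted p 0.00802, and 0.0530 without knockdown replicate 1).

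A pair of MRPL genes on chromosome 8 lost RUNX1 in the main fit and in some of the others, with the call kept in 3 (MRPL13) and 7 (MRPL15) of the 12 fits that left out 1 library. MRPL13 (chr8:120444849-120445814, shared with MTBP) held 25.3, 41.7 and 50.7 in control and 23.8, 28.0 and 32.5 in knockdown libraries. The groups overlapped, and the log2 fold change was -0.46 ± 0.20 (adjusted p 0.0486, and 0.146 without control replicate 1). Centred on its 10 Mb window MRPL13 stood at -0.39 and was not called (adjusted p 0.102). MRPL15 (chr8:54134532-54136019) held 36.4, 58.3 and 88.4 in control and 32.5, 44.0 and 52.7 in knockdown libraries. It also overlapped, with -0.46 ± 0.17 (adjusted p 0.0215, and 0.0768 without control replicate 1). The 64 peaks of its 10 Mb window had a median of -0.38, and centred on it the adjusted p was 0.762.

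The remaining lost MRPL peaks, outside the rule for named peaks and listed for completeness, were MRPL16, MRPL32, MRPL37, MRPL45, MRPL47, MRPL53 and MRPL58, at log2 fold changes from -0.45 (MRPL32) to -0.32 (MRPL45). MRPL58 encodes a peptidyl-tRNA hydrolase that releases stalled chains. The member peak with the highest count, MRPL18 (chr6:159788593-159791984, shared with the chaperonin gene TCP1), did not pass the test. Its counts of 155.5, 193.1 and 213.4 in control and 146.1, 165.3 and 198.9 in knockdown libraries overlapped widely (log2 fold change -0.18 ± 0.10, adjusted p 0.132). MRPL54 likewise gave 141.9, 166.5 and 188.4 in control and 137.8, 157.6 and 171.8 in knockdown libraries at its start peak, shared with APBA3 (-0.05 ± 0.09, adjusted p 0.704).

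MRPL17, whose bacterial homolog lies near the exit of the nascent chain, had 2 neighbouring peaks that differed. Its second peak (chr11:6681829-6682614) begins 726 bp from the gene start, 50 bp from the end of the start peak, and held 13.8, 17.8 and 27.3 in control and 26.1, 30.6 and 33.8 in knockdown libraries. The groups overlapped by 1 control library and were separate within each batch. Binding rose by 0.74 ± 0.23 (adjusted p 0.00518), and the call held in all 12 fits that left out 1 library. The start peak gave -0.20 and did not pass. The difference between these neighbours was not tested.

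In the small subunit, 4 of 22 MRPS peaks were lost and 1 gained (median -0.21), and 1 lost and 2 gained when scaled to other gene ends. The main fit thus called 22.7% of MRPS peaks, against 25.2% of other gene-end and 42.0% of all peaks. MRPS21 (chr1:150293524-150295178), a member of the bacterial bS21 family, held 72.8, 95.4 and 104.3 in control and 59.9, 68.3 and 73.9 in knockdown libraries. Only 1 control library lay below the highest knockdown library, and binding fell by 0.48 ± 0.13 (adjusted p 0.000928). Centred on its 10 Mb window it stood at -0.29 and was not called (adjusted p 0.0606). MRPS2, MRPS15 and the MRPS18A start peak, outside the naming rule, were lost at -0.43, -0.39 and -0.37. The MRPS15 peak is shared with CSF3R, the receptor gene of granulocyte colony-stimulating factor.

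MRPS26 (chr20:3045111-3046880, shared with GNRH2) was the gained small subunit peak. It held 52.8, 69.5 and 77.2 in control and 69.4, 84.4 and 99.4 in knockdown libraries. The groups overlapped across batches and not within either batch, and binding rose by 0.39 ± 0.14 (adjusted p 0.0121, and 0.0602 without control replicate 5 or 0.0518 without knockdown replicate 5). MRPS23 (chr17:57849129-57850773), the MRPS peak with the highest count, held 142.2, 157.7 and 184.5 in control and 124.4, 136.7 and 152.3 in knockdown libraries. These overlapped, at -0.22 ± 0.10 (adjusted p 0.0714).

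Complex I, the NADH dehydrogenase that opens the chain, had 28 NDUF subunit peaks, of which 7 were lost and 1 gained (median -0.17), and 4 lost and 1 gained when scaled to other gene ends. In the main fit 28.6% of these peaks were called, against 25.2% of other gene-end and 42.0% of all peaks. The deepest loss was at a core subunit, 1 of those with bacterial counterparts. The NDUFS3 peak (chr11:47578465-47579420) is shared with the head-to-head gene KBTBD4 and lies in the same 10 Mb window as SPI1, the gene for PU.1. It held 18.4, 38.7 and 55.9 in control and 8.59, 17.1 and 27.4 in knockdown libraries, and the groups overlapped through 1 control library of batch 1. The log2 fold change was -1.09 ± 0.27 (adjusted p 0.000274), with -0.49 ± 0.44 in batch 1 and -1.58 ± 0.35 in batch 2. The 68 peaks of the window had a median of -0.29, and after centring NDUFS3 stood at -0.80 (adjusted p 0.00991).

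NDUFV2 (chr18:9101912-9103949) encodes an iron-sulfur subunit of the NADH-oxidising module. Its counts ran 31.2, 49.9 and 83.2 in control and 28.0, 32.3 and 38.2 in knockdown, with the lowest control library inside the knockdown range. The log2 fold change was -0.63 ± 0.19 (adjusted p 0.00439). NDUFS1 at -0.19 and NDUFS7 at -0.09, which are also core subunits, did not pass the test and were named after their values were seen.

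Lost peaks of accessory complex I subunits were mostly shared with other genes. NDUFB4 (chr3:120595778-120596829) was not shared, and held 12.7, 30.8 and 46.8 in control and 14.9, 18.5 and 24.7 in knockdown libraries. The lowest control library lay below all knockdown libraries, the log2 fold change was -0.66 ± 0.25 (adjusted p 0.025), and the adjusted p was 0.0881 without control replicate 1, 0.141 without control replicate 5 and 0.0691 without knockdown replicate 2. The peak counted for NDUFB10 (chr16:1962341-1965672) lies 366 bp from that gene's far end and covers the end of RPS2, a cytosolic ribosomal protein gene. It held 73.9, 87.6 and 105.8 in control and 46.3, 63.2 and 68.7 in knockdown libraries. The groups did not overlap, and binding fell by 0.50 ± 0.14 (adjusted p 0.00127).

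NDUFA7 had a wide start peak (chr19:8319783-8323142) that also covers ends of KANK3 and of RPS28, another ribosomal protein gene. It held 80.9, 85.8 and 98.9 in control and 53.4, 63.5 and 76.0 in knockdown libraries. These did not overlap, and the log2 fold change was -0.47 ± 0.13 (adjusted p 0.00195). NDUFB1 (chr14:92121224-92122710, shared with CPSF2) held 36.4, 39.9 and 45.5 in control and 24.2, 27.6 and 38.9 in knockdown libraries, so 1 knockdown library lay among the controls (-0.48 ± 0.19, adjusted p 0.0303, and 0.0506 to 0.113 without control replicate 1, 2 or 6 or knockdown replicate 1, 2 or 6). NDUFB9 was lost at -0.36. NDUFA11 (chr19:5902684-5905181, shared with VMAC), the complex I peak with the highest count, held 123.4, 138.8 and 159.0 in control and 105.9, 138.0 and 162.5 in knockdown libraries and overlapped throughout (-0.04 ± 0.11, adjusted p 0.799).

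Neither assembly factors of complex I nor complex III gave a call in the main fit or when scaled to other gene ends. Few peaks were tested in either family, and the main fit called 25.2% of other gene-end and 42.0% of all peaks. All 3 NDUFAF peaks were uncalled (median -0.25). NDUFAF7 (chr2:37230971-37232368, shared with CEBPZ), a methyltransferase, held 55.8, 83.8 and 93.6 in control and 62.1, 90.0 and 97.5 in knockdown libraries, and these overlapped (0.07 ± 0.14, adjusted p 0.739). Of 6 UQCR peaks, encoding subunits of the cytochrome bc1 complex, 0 were called by DESeq2 or edgeR (median -0.16). UQCRH (chr1:46302617-46304150, shared with LRRC41), the hinge protein beside cytochrome c1, held 51.8, 68.9 and 83.2 in control and 50.9, 65.1 and 65.8 in knockdown libraries, with -0.13 ± 0.15 (adjusted p 0.521).

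Cytochrome c oxidase, complex IV, gave 1 lost peak of 8 among its subunits (median -0.20) and 1 lost peak of 7 among its assembly factors (median -0.31). These calls make up 12.5% and 14.3%, against 25.2% of other gene-end and 42.0% of all peaks. When scaled to other gene ends, the subunits gave 0 calls and the assembly factors 1 gained peak, at COX17. COX16 (chr14:70359237-70360344), which takes part in building the copper center of the enzyme, held 17.9, 29.2 and 44.6 in control and 9.13, 20.4 and 29.7 in knockdown libraries. The groups overlapped, the log2 fold change was -0.63 ± 0.26 (adjusted p 0.0365), and the call held in 6 of the 12 fits that left out 1 library. COX5A, outside the naming rule, was lost at -0.38. COX6C (chr8:99892986-99894426) held 85.0, 91.7 and 124.7 in control and 58.2, 79.5 and 104.1 in knockdown libraries and did not pass (-0.30 ± 0.14, adjusted p 0.0645). COX15 (chr10:99731589-99733076, shared with CUTC), needed for heme A synthesis, held 59.0, 69.2 and 80.0 in control and 58.1, 67.5 and 72.1 in knockdown libraries. These overlapped, with -0.09 ± 0.14 (adjusted p 0.638).

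At ATP synthase, 3 of 14 ATP5 peaks were lost (median -0.16), and 0 lost and 1 gained when scaled to other gene ends. The main fit called 21.4% of ATP5 peaks, against 25.2% of other gene-end and 42.0% of all peaks. ATP5PB (chr1:111448649-111450069, shared with WDR77), subunit b of the peripheral stalk, held 112.9, 133.5 and 156.9 in control and 91.5, 108.6 and 123.0 in knockdown libraries. The groups overlapped, and the log2 fold change was -0.33 ± 0.11 (adjusted p 0.00962, and 0.0647 without control replicate 6 or 0.0623 without knockdown replicate 2). ATP5F1E and ATP5PF, outside the naming rule, were lost at -0.40 and -0.38. ATP5F1E belongs to the F1 part, which holds the catalytic sites. Other peaks of that part, ATP5F1A at -0.16, ATP5F1B at 0.01 and ATP5F1C at 0.12, did not pass the test. These uncalled peaks were named after their values were seen.

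**Figure D5:**
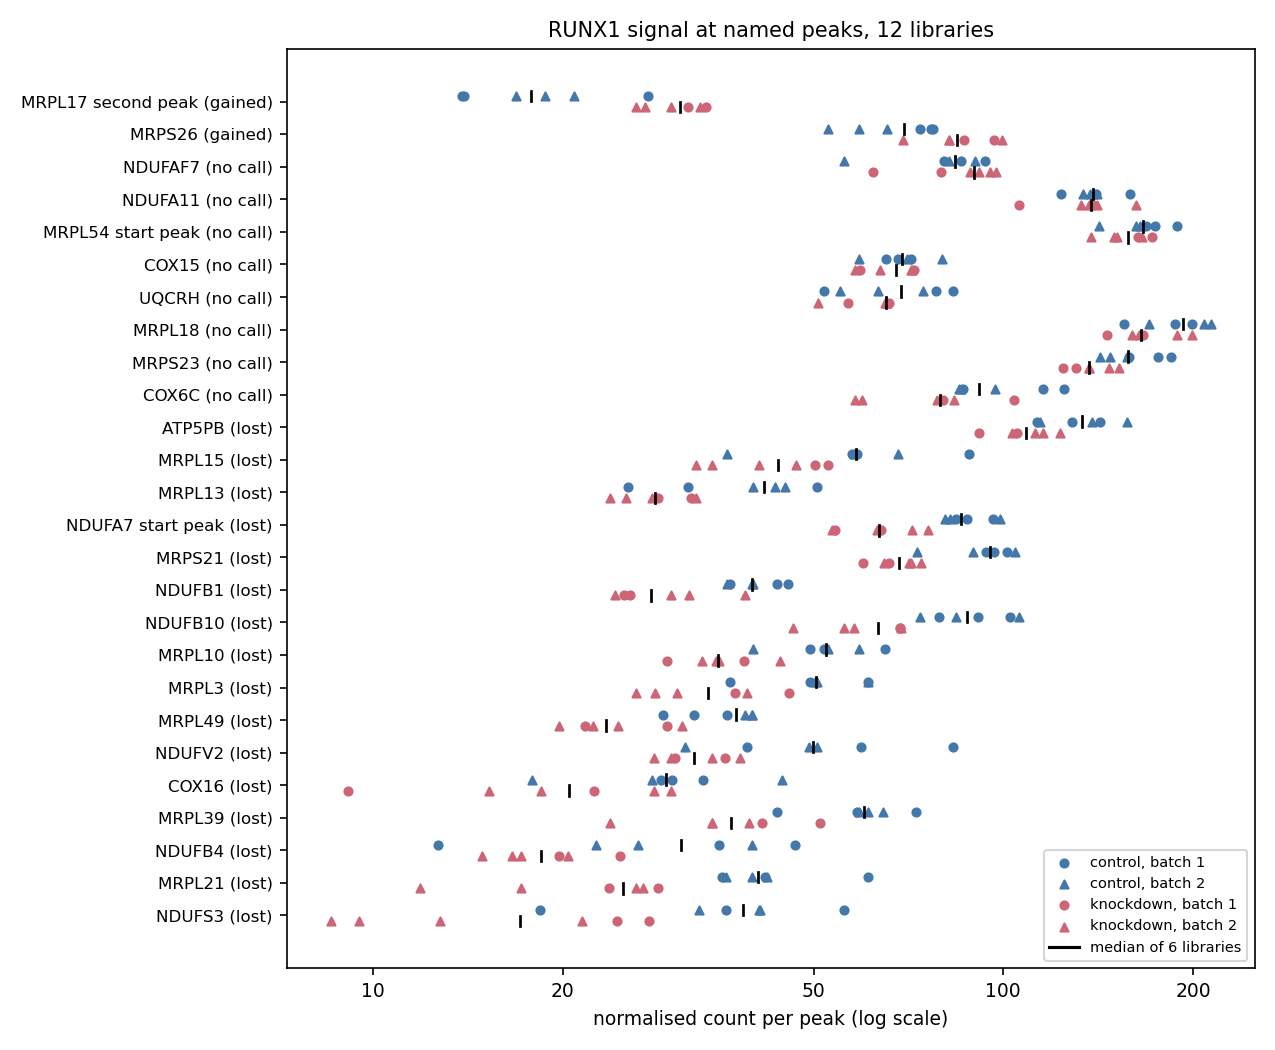
Normalised count per library (log axis, not scaled to peak width) at 26 named peaks, ordered by log2 fold change from the deepest loss at the bottom (NDUFS3, -1.09) to the largest gain at the top (second MRPL17 peak, 0.74). Each symbol is 1 library, shapes mark the batch, and black ticks are medians of 6 libraries; the groups are separate at MRPL21, NDUFB10 and NDUFA7 and overlap at the others.

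Of the genes with a peak at both ends or a pair of peaks, some moved apart. MRPS18A had -0.37 at its start, called lost, and 0.31 at its other end, not called. ATP5PD had -0.48 and 0.19, neither called. MRPL4, MRPS16, NDUFA7 and NDUFB6 had values below 0 at both. Of 60 peaks shared with another gene end 18 were called, 17 of them lost, and of 66 unshared peaks 15 were called, 13 of them lost. By mean count, members under 30, from 30 to 60, and from 60 upward were lost in 12.5%, 25% and 28.3%, against 13.2%, 20.1% and 22.4% of other gene-end peaks in the same ranges.

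Few peaks lay near the 1 kb limit. Just inside it, from 528 to 726 bp, lay peaks of MRPL36 (-0.21), MRPL4 (-0.25), ATP5MF-PTCD1 (0.04), MRPS16 (-0.14) and MRPL17 (0.74). Just outside, from 1032 to 1959 bp, lay 9 peaks, among them NDUFAF3 (2.09), MRPL13 (0.89) and MRPS23 (-0.92), with the other 6 between -0.36 and 0.10.

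Other genes of mitochondrial gene expression and assembly came from a list of 72 that does not overlap the member list. They gave 50 peaks away from member ends, with 12 lost and 2 gained. Of these peaks 28.0% were called, against 25.2% of other gene-end and 42.0% of all peaks. The median log2 fold change was -0.18, with -0.14 in batch 1 and -0.22 in batch 2, against -0.17 over other gene-end peaks. The lost peaks included those of SLIRP, an RNA-binding partner of LRPPRC (-0.74 ± 0.18, adjusted p 0.000209), PTCD3, a small subunit protein without the MRPS prefix (-0.55), ACAD9, a complex I assembly factor (-0.53), TUFM, the mitochondrial elongation factor Tu (-0.35), and POLG, the mitochondrial DNA polymerase (-0.42). GABPB1 and GABPB2, which encode the partner subunits of GABPA in GABP, were both lost. At GABPB1 counts ran 196.0, 245.6 and 349.6 in control and 154.7, 193.5 and 212.6 in knockdown, overlapping at the edge (-0.40 ± 0.10, adjusted p 0.000379), and GABPB2 stood at -0.39 (adjusted p 0.0129). Most of the 50 peaks did not pass the test, among them that of TFAM, which packages mitochondrial DNA (-0.03, adjusted p 0.872). Those uncalled also included LRPPRC (-0.24), DAP3 (-0.23), POLRMT (-0.16), TFB2M (-0.08) and TFB1M (-0.07), named after their values were seen. The gained peaks lay at the far ends of MTIF2 (0.81) and YY1 (1.22), both with low counts. When scaled to other gene ends the list gave 7 lost and 3 gained. Cytosolic ribosomal protein ends gave 14 lost and 0 gained of 64 (21.9% called), and ZNF ends 30 lost and 9 gained of 236 (16.5%). These became 8 lost and 3 gained, and 11 lost and 18 gained, when scaled to other gene ends. Under that scaling 18.9% of other gene-end and 42.9% of all peaks were called.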

How the data were processed

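RUNX1 ChIP-seq libraries of THP-1 cells were compared. According to the methods of the study, the authors used bowtie2 for alignment, discarded duplicates, ran macs2 separately for each condition and batch, retained peaks that recurred in both batches by irreproducible discovery rate, and merged them. The deposited table holds raw counts from featureCounts for each merged peak and library. The deposited peak width (other information) was used only as a description. Peaks were called on the libraries compared here. The methods name a mouse build; the coordinates were taken as GRCh38, since 24.4% of peaks lay within 1 kb of a GRCh38.p14 gene end, against 5.48% to 7.58% after moving them by 10 to 1000 kb. The gene table gives no exons and no strand; strand came from the RefSeq promoter table (155 of 181 members).

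DESeq2 1.42.0 (R 4.3.3) was fitted on all 26642 peaks using median-of-ratios size factors, with the batch as covariate. Calls needed a Benjamini-Hochberg adjusted p under 0.05 over all peaks and a fold change over 1.1, as in the study. edgeR 4.0.16, other size factors, other filters, windows and covariates, centring on 10 Mb windows, and leaving out each of 12 libraries were alternatives. On simulated counts for knockdown against control over 26642 peaks, DESeq2 recovered 182 of 200 peaks set to a log2 change of 1, with 4 false calls, and edgeR 185 with 9. The simulation had 1 fixed dispersion, no batch effect, few changed peaks and none of these with a low count. It therefore does not show recovery or false calls at changes as small as those of most members. Within each group, pairs of libraries gave chi-squares of 1.29 to 2.24 per degree of freedom, so none was counted as a duplicate.

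Named peaks were up to 15 lost and 10 gained with the largest fold change, the 5 with the highest mean count, and the highest of each family. Members, lists and rules were chosen with earlier results of these data known. IgG libraries were not used here, and the values of 1 peak that met the naming rule are not reported here.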

Additional observations from a re-analysis of the deposited data

Results flagged for a closer look

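In 60 groups of 6 libraries searched, 4 held 1 library far from the other 5 by Dixon's criterion, where chance gives about 1 in 20 groups, or 3. Control replicate 1 had the highest member share of in-peak reads (0.748%, against 0.640% to 0.675% in the other controls) and the highest summed normalised count over members (8627, against 7118 to 7531). It also stood high at MRPL21 (61.1, against 35.7 to 42.1). Control replicate 6 stood low at NDUFAF7 (55.8, against 80.7 to 93.6). Their causes were not tested.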

How the results depend on the processing

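The 33 member calls became 13 and the median log2 fold change -0.072 with size factors from other gene-end peaks. Under that scaling 18.9% of other gene-end and 42.9% of all peaks were called. With the replicate number as a block in place of batch there were 16 (19.9% of other gene-end and 35.6% of all peaks). Numbers do not pair these libraries: correlations of deviations ran from -0.10 to 0.01 and number 3 crosses batches. With at least 10 counts in every library 14 of 119 were called (17.5% and 22.1%). There were 11 calls at an adjusted p under 0.01 (14.7% and 31.6%) and 1 at a fold over 2 (3.64% and 17.1%). Among 66 unshared peaks 15 were called (25.2% of other gene-end and 42.0% of all peaks), and 8 (median log2 fold change -0.089) with gene-end size factors (18.9% and 42.9%). The fits without 1 library gave 21 to 31 calls, with 9 of the 33 kept in all 12 fits and the fewest calls when control replicate 6 or knockdown replicate 1 was left out. Those fits called 19.1% to 25.6% of other gene-end and 36.6% to 40.4% of all peaks. In batch 1 the 0 calls became 11 under edgeR and 0 to 1 with 1 library left out (1 without control replicate 2), and in batch 2 the 9 became 21 and 3 to 7 (5 without control replicate 4, 4 without control 5, 3 without control 6, 5 without knockdown replicate 4). By family, gene-end size factors gave 3 MRPL, 3 MRPS, 5 NDUF, 0 COX and 1 ATP5 calls; leaving out control replicate 1 gave 3 MRPS, 0 COX and 1 ATP5; edgeR gave 2 COX subunit and 2 COX assembly calls. The member share ratio was 0.882, 0.867 to 0.902 with 1 library left out, and 0.965 against gene-end reads. The cause of these changes was not tested. Over the named peaks, 521 values kept their side of the threshold, 63 fell below it, 9 passed it and 0 changed sign while called. Depth limits single peaks: at 30 to 70 reads, standard errors had a median of 0.17, so uncalled members do not show an absence of change.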
